A study of Mus musculus with 9 samples.

Results

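The 2-oxoglutarate-dependent dioxygenases are enzymes that spend molecular oxygen and 2-oxoglutarate, an intermediate of the tricarboxylic acid cycle, to hydroxylate or demethylate proteins, DNA, RNA and small molecules. The rule behind the set described here goes by gene name and function and uses no measured value, although earlier results of these data were known when it was drawn up. The set holds 45 genes of the 55536 in the count table. It spans hydroxylases of the hypoxia-inducible factor (HIF), collagen prolyl and lysyl hydroxylases, TET enzymes, Jumonji (JmjC) demethylases, ALKBH enzymes with FTO, and PHYH. One member, D2hgdh, is no dioxygenase: it encodes a mitochondrial flavoprotein that oxidises D-2-hydroxyglutarate to 2-oxoglutarate. All 45 members passed the filter on low counts, which left 15720 genes for testing.

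These enzymes need ferrous iron and release succinate and carbon dioxide with each turnover. Succinate, fumarate and 2-hydroxyglutarate compete with 2-oxoglutarate at the active site, so the enzymes are known as points where mitochondrial metabolism and oxygen meet collagen maturation, HIF stability and the methylation of chromatin and RNA. RNA levels are measured here, and neither enzyme activity nor metabolites are.

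The cells were primary mouse myoblasts, the dividing precursors of muscle fibres, from mice with floxed Uqcrfs1, the gene for the Rieske iron-sulphur subunit of respiratory complex III. The 3 floxed vehicle libraries came from cells labelled uqcrfs1 +/+ (floxed) that received an adenovirus for green fluorescent protein and DMSO. The 3 knockout vehicle libraries came from uqcrfs1 -/- (KO) cells made with a Cre adenovirus and given DMSO, and the 3 knockout oxybutynin libraries came from such cells given 7.5 µM oxybutynin, a muscarinic receptor antagonist. All cells were seeded 72 hours after the virus, treated 24 hours later and cultured for 5 days. The study asked about oxybutynin because it improved proliferation in a compound screen on cells with inhibited complex III. Floxed cells given oxybutynin are not among the groups, so the compound was compared in knockout cells only, and genotype cannot be told apart from the virus used. The labels give no strain, age or number of mice and do not say whether the 3 libraries of a group came from separate mice or cultures, so p-values measure the spread between libraries, which may be technical.

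Library totals ran from 19604971 to 26226949 counts. Uqcrfs1 itself measured 76.5 to 83.6 CPM (counts-per-million of the scaled library) in floxed cells and 2.07 to 2.90 CPM in the 6 knockout libraries. Summed myoblast markers (8 of 8 detected, Myod1, Myf5 and Des among them) reached 3913 to 4067 CPM in floxed, 3855 to 4808 CPM in knockout vehicle and 4710 to 4922 CPM in oxybutynin libraries. Summed fibroblast markers stayed between 269 and 312 CPM in all 9 libraries, with Lum and Tcf21 at 0 and Dcn, Dpt and Pi16 under 1 CPM everywhere. Within this sum Col1a1, Col1a2 and Thy1 rose with knockout, Col3a1 fell and Pdgfra was not called, as given below. Summed smooth muscle and pericyte markers were 500 to 547 CPM in floxed, 859 to 1135 CPM in knockout vehicle and 1049 to 1188 CPM in oxybutynin libraries, with Myh11 under 1 CPM. Leukocyte markers summed to 5.26 to 6.14 CPM in floxed, 11.3 to 12.8 CPM in knockout vehicle and 12.4 to 13.6 CPM in oxybutynin libraries, mostly from Cd68, with the other 5 under 1 CPM. Endothelial, adipocyte and Schwann cell markers each summed to under 4 CPM. Mitochondrially encoded counts made up 3.07% to 3.14% of floxed, 1.95% to 2.71% of knockout vehicle and 1.58% to 2.12% of oxybutynin libraries, and the noncoding RNA Rn7sk 1.93% to 2.10%, 2.36% to 3.59% and 3.36% to 3.98%. Knockout vehicle library 2 stood apart: it correlated at 0.951 to 0.953 with the floxed libraries (log2 CPM over genes), against 0.933 to 0.941 for libraries 1 and 3, and had the highest mitochondrial share (2.71%) and lowest Rn7sk share (2.36%) of its group. These shares, the markers and the virus moved with the groups, and their part in the results below was not tested. In bulk RNA, fewer cells of a type and less RNA per cell cannot be told apart.

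In the counts as deposited, the collagen prolyl 4-hydroxylases and prolyl 3-hydroxylases rose with loss of Uqcrfs1, as did Phyh and Fto. The TET genes, Jmjd1c, Alkbh8 and Egln3 fell. Among these, P4ha3, P3h1, Tet1 and Tet2 did not keep their call in both fits adjusted for base composition, given below. Of the 45 members, 37 were called in knockout vehicle against floxed vehicle at an edgeR adjusted p under 0.05, against 63.3% of all genes tested. Of these, 23 were higher (29.9% of all genes) and 14 lower (33.4% of all genes), and 36 members had libraries that did not overlap between the groups, against 66.7% of all genes. The median log2 fold change was 0.25 over the members and -0.01 over all genes. Changes ran from -2.07 for Jmjd1c to 1.73 for Phyh, and 25 members changed by less than 0.5 on the log2 scale.

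**Figure D1:**
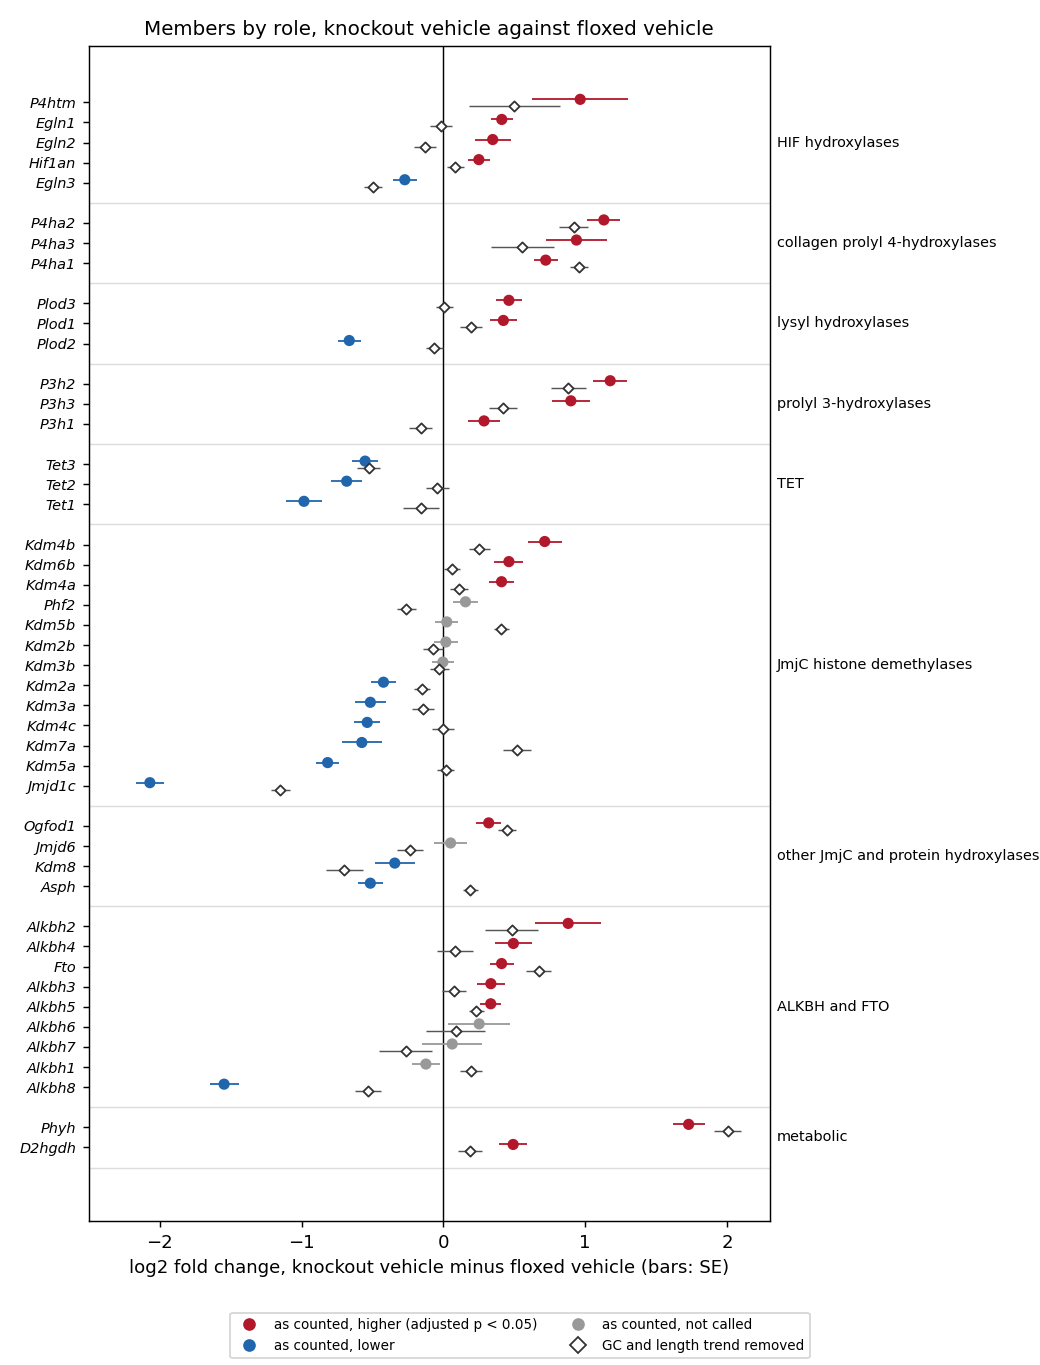
Log2 fold change of each of the 45 members between knockout vehicle and floxed vehicle, grouped by role, with the SE as a bar. Filled circles are the counts as deposited (red higher, blue lower, grey not called) and open diamonds the fit with the GC and length trend removed; Phyh lies farthest to the right and Jmjd1c farthest to the left.

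Part of this pattern went with base composition. Across 12976 protein-coding genes the log2 fold change correlated with the GC content of the longest transcript (Spearman's rho 0.54), and across the 45 members the value was 0.64; genes share the same 9 libraries, so these are descriptions. The 23 members called higher had a median GC content of 53.6% and the 14 called lower 44.2%. A refit that removed each library's trend with GC content and exon length called 16 members higher, against 29.9% of genes, and 8 lower, against 28.9%, with a member median of 0.08. When the scaling factors were not recomputed after the trend was removed, the split was 9 higher and 13 lower, against 23.0% and 37.7% of genes, and the median of all genes moved to -0.13. In both adjusted fits, 13 members were called with the sign they had in the counts as deposited, 7 higher (P4ha1, P4ha2, P3h2, P3h3, Ogfod1, Fto and Phyh) and 6 lower (Egln3, Tet3, Kdm2a, Jmjd1c, Kdm8 and Alkbh8). The share of all genes that met this rule was not computed, so the count has no baseline. These 13 are marked as such below, where the refit with recomputed scaling is called the GC-adjusted fit. Whether the GC trend is technical was not tested.

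**Figure D2:**
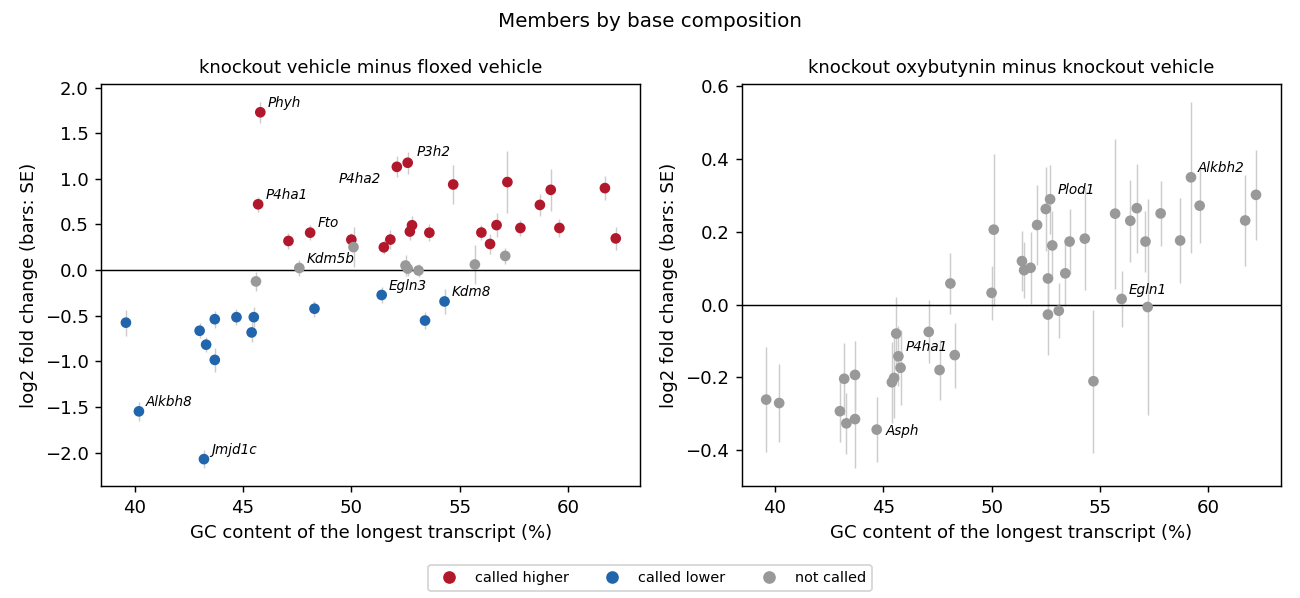
Log2 fold change of the 45 members (vertical axis, bars are SE) against the GC content of the longest transcript in percent, for knockout vehicle minus floxed vehicle (left) and knockout oxybutynin minus knockout vehicle (right). In both panels members with low GC content lie lower; Phyh and P4ha1 lie above other members of like GC content on the left.

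The HIF hydroxylases use oxygen to mark HIF alpha subunits: the 3 EGLN prolyl hydroxylases mark them for destruction, and HIF1AN hydroxylates an asparagine that blocks coactivator binding. P4HTM is a transmembrane prolyl hydroxylase of the endoplasmic reticulum. Of these 5 genes, 4 rose with knockout and Egln3 fell. Egln1, the main HIF prolyl hydroxylase in most tissues, measured 37.9, 39.5 and 39.7 CPM in floxed, 51.9, 51.7 and 52.3 CPM in knockout vehicle and 51.4, 52.7 and 53.4 CPM in oxybutynin libraries. Each of the 6 knockout libraries lay above every floxed one, and the change was 0.41 ± 0.08 (log2 ± SE, edgeR adjusted p = 0.00021). In the GC-adjusted fit the value was -0.02 and Egln1 was not called.

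Egln2 measured 18.8, 19.5 and 20.1 CPM in floxed, 25.9, 19.1 and 29.4 CPM in knockout vehicle and 32.4, 30.4 and 28.8 CPM in oxybutynin libraries. Its second knockout vehicle library lay among the floxed ones, and the change of 0.35 ± 0.13 (edgeR adjusted p = 0.025) was not called without floxed library 1 (0.32), floxed library 2 (0.35) or knockout vehicle library 3 (0.21), nor in the GC-adjusted fit (-0.13), and with scaling left as it was Egln2 was called lower (-0.26). Egln3, itself a well-known HIF target, measured 117, 120 and 111 CPM in floxed, 104, 88.3 and 96.4 CPM in knockout vehicle and 96.4, 107 and 110 CPM in oxybutynin libraries. All 6 knockout libraries were below the lowest floxed one. The fall was -0.27 ± 0.08 (edgeR adjusted p = 0.0089) in the counts as deposited and -0.50 ± 0.06 in the GC-adjusted fit, and it was called in both adjusted fits.

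Hif1an ranged from 65.8 to 70.7 CPM in floxed and from 78.7 to 83.7 CPM in knockout vehicle libraries, a change of 0.25 ± 0.08 that was not called without floxed library 2 (0.22). P4htm was the lowest member, at 0.56 to 0.85 CPM in floxed and 1.05 to 1.86 CPM in knockout vehicle libraries. Its change of 0.96 ± 0.34 was not called without floxed library 2 (0.83) or knockout vehicle library 3 (0.65). Neither gene was called after GC adjustment.

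Around these enzymes, 13 of 14 listed genes of the HIF axis were tested, and 3 were higher and 6 lower, against 29.9% and 33.4% of all genes. After GC adjustment the lean turned, with 5 higher and 3 lower, against 29.9% and 28.9% of genes. The median log2 fold change of the list moved from -0.19 to 0.20. Hif1a, the oxygen-labile subunit itself, measured 234, 234 and 236 CPM in floxed and 121, 143 and 120 CPM in knockout vehicle libraries, a change of -0.88 ± 0.09 that became -0.08 after GC adjustment and was then not called. The coactivator genes Ep300 (-0.68 ± 0.07) and Crebbp (-0.58 ± 0.09) fell and were lower after adjustment too, at -0.60 and -0.55. Eloc, which encodes elongin C of the VHL ubiquitin ligase, changed by -0.84 ± 0.09 and stood at 0.23, not called, after adjustment.

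**Figure D3:**
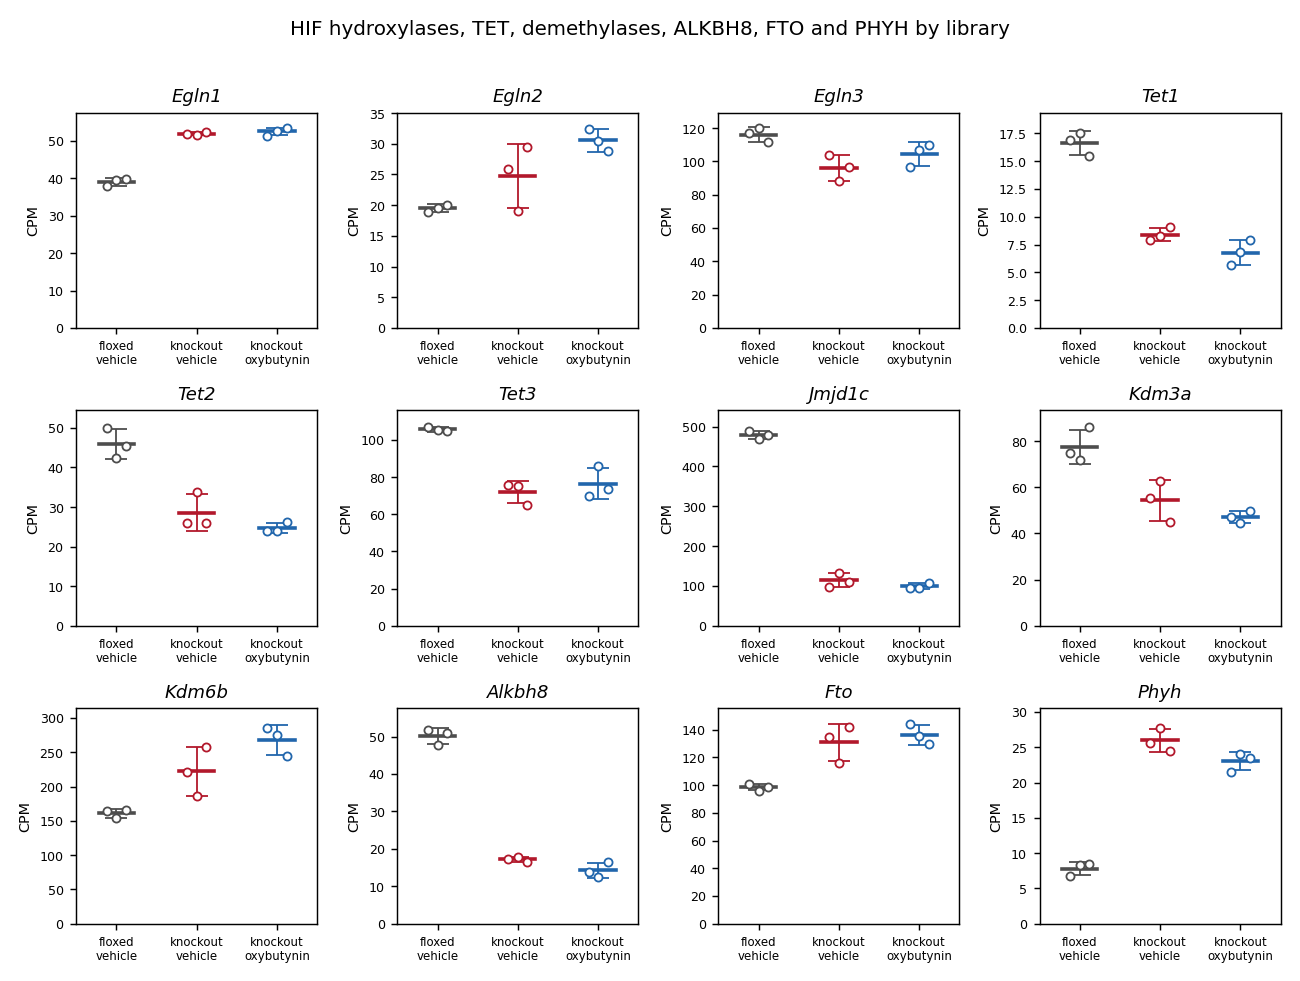
CPM per library (open circles), group mean (line) and SD (bars, n = 3) of 12 members in the 3 groups, each axis starting at 0. Jmjd1c, Alkbh8 and the 3 TET genes are lower in all 6 knockout libraries than in any floxed one, and Phyh is higher.

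Collagen prolyl 4-hydroxylases make the 4-hydroxyproline that holds the collagen triple helix together at body temperature. Their catalytic subunits are encoded by P4ha1, P4ha2 and P4ha3, and all 3 rose. The 2 with higher levels are known hypoxia-induced genes, as is Egln3, and stretches before a RefSeq start of these 3 genes are shown with that of Phyh, the member that rose most; they were picked after their values were seen. Each is the 250 bases before a RefSeq gene start (GRCm38.p6), read 5′ to 3′ on the gene's strand, with capitals marking the core of the HIF-binding element, ACGTG or GCGTG, on either strand (CACGT or CACGC where it lies on the other strand).
P4ha1 (chr10:59323046-59323295, plus strand): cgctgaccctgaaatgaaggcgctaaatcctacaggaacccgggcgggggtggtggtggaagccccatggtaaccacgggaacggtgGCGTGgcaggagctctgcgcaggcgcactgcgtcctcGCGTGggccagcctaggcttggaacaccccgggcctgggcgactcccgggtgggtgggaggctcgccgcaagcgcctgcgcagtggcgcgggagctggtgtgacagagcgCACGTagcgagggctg
P4ha2 (chr11:54100674-54100923, plus strand): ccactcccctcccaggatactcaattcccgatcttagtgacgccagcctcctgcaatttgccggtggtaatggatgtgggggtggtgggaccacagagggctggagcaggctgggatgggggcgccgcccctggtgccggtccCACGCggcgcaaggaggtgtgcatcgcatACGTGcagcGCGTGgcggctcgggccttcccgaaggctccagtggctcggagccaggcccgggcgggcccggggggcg
Egln3 (chr12:54203875-54204124, minus strand): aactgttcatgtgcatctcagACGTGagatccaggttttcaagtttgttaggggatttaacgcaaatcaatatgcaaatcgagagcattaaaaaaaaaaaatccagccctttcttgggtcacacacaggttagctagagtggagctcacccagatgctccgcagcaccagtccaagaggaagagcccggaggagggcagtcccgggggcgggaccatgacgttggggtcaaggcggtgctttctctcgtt
Phyh (chr2:4918746-4918995, plus strand): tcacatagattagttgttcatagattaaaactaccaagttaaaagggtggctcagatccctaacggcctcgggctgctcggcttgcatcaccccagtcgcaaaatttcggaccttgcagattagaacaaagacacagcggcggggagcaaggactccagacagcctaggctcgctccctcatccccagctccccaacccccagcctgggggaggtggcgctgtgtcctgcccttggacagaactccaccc
The P4ha1 stretch held 3 matches, beginning 163, 126 and 16 bases before the start, and the P4ha2 stretch 3, beginning 107, 78 and 69 bases before it. The Egln3 stretch held 1, beginning 229 bases before the start, and the Phyh stretch 0. No marked match overlaps another. The P4ha2 stretch lies inside the span that GENCODE gives that gene, past an earlier start, and overlaps 0 of its exons. Of 32851 such stretches in RefSeq, 38.6% held at least 1 match, and of 37 members with a listed start 23 held one at some start, against 41.5% of 27025 genes. A match describes letters in these windows and no more. The genes with 3 matches and with 0 matches both rose, and the gene with 1 fell. Whether matches go with the changes was not tested.

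P4ha1 (gene at chr10:59323296-59373304) measured 56.2, 54.7 and 61.1 CPM in floxed, 95.8, 101 and 86.5 CPM in knockout vehicle and 88.2, 83.2 and 85.7 CPM in oxybutynin libraries. Every knockout library lay above every floxed one. The change was 0.72 ± 0.08 (edgeR adjusted p = 9.3e-07) and 0.95 ± 0.06 after GC adjustment. P4ha2 (chr11:54100095-54131665) measured 8.99, 8.97 and 10.2 CPM in floxed, 20.2, 18.2 and 23.3 CPM in knockout vehicle and 24.3, 25.3 and 22.1 CPM in oxybutynin libraries, again without overlap between genotypes. Its change was 1.13 ± 0.12 (edgeR adjusted p = 2.1e-07), a 2.19-fold rise, and 0.92 ± 0.10 after adjustment. P4ha3 ranged from 1.67 to 2.45 CPM in floxed and 3.28 to 4.39 CPM in knockout vehicle libraries (0.94 ± 0.21), and it was called in the GC-adjusted fit (0.56 ± 0.22) but not with scaling left as it was. Per kilobase of exon, P4ha1 was the highest of the 3 in every group, at 13.9 ± 0.82 CPM per kb (SD, n = 3) in floxed and 23.0 ± 1.84 CPM per kb in knockout vehicle cells.

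Lysyl hydroxylases make the hydroxylysine that carries sugars and cross-links in collagen, and PLOD2 is the one known for the collagen ends where cross-links form. Plod2 fell while Plod1 and Plod3 rose. Plod2 measured 157, 154 and 160 CPM in floxed, 102, 107 and 88.7 CPM in knockout vehicle and 81.6, 76.4 and 85.0 CPM in oxybutynin libraries. The 3 groups did not overlap, and the change with knockout was -0.66 ± 0.08 (edgeR adjusted p = 2.2e-06). In the GC-adjusted fit it was -0.06 and not called, and with scaling left as it was -0.20 and called. Plod1 ranged from 29.9 to 32.9 CPM in floxed and 39.0 to 47.3 CPM in knockout vehicle libraries (0.42 ± 0.10, and 0.20 ± 0.08, still called, in the GC-adjusted fit), but it was not called with scaling left as it was (0.06). Plod3 ranged from 57.8 to 60.1 CPM and 75.2 to 90.9 CPM in those groups (0.46 ± 0.09), and it stood at 0.01 and was not called after adjustment. In CPM per kb, Plod2 was the highest lysyl hydroxylase in floxed cells (29.2 ± 0.56) and Plod3 the highest in oxybutynin cells (21.3 ± 1.57).

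Prolyl 3-hydroxylases modify a few prolines of collagens, P3H1 in a complex with CRTAP and cyclophilin B and P3H2 chiefly in basement membrane collagen. All 3 rose. P3h2 (chr16:25959288-26105784) measured 8.74, 7.21 and 8.05 CPM in floxed, 16.9, 20.3 and 17.0 CPM in knockout vehicle and 16.9, 19.1 and 17.0 CPM in oxybutynin libraries. The genotypes did not overlap; the change was 1.18 ± 0.12 (edgeR adjusted p = 1.7e-07) and 0.88 ± 0.12 after GC adjustment. P3h3 (chr6:124841089-124857752) measured 12.4, 10.8 and 11.7 CPM in floxed, 21.3, 18.9 and 24.7 CPM in knockout vehicle and 28.7, 26.7 and 20.8 CPM in oxybutynin libraries. The same held for P3h3, with a change of 0.90 ± 0.13 (edgeR adjusted p = 1.4e-05) and 0.42 ± 0.10 after adjustment. P3h1 changed by 0.29 ± 0.11, and this call was lost without any 1 floxed library (0.27 to 0.31) or without knockout vehicle library 3 (0.13), and in the GC-adjusted fit (-0.16); with scaling left as it was P3h1 was called lower (-0.29).

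**Figure D4:**
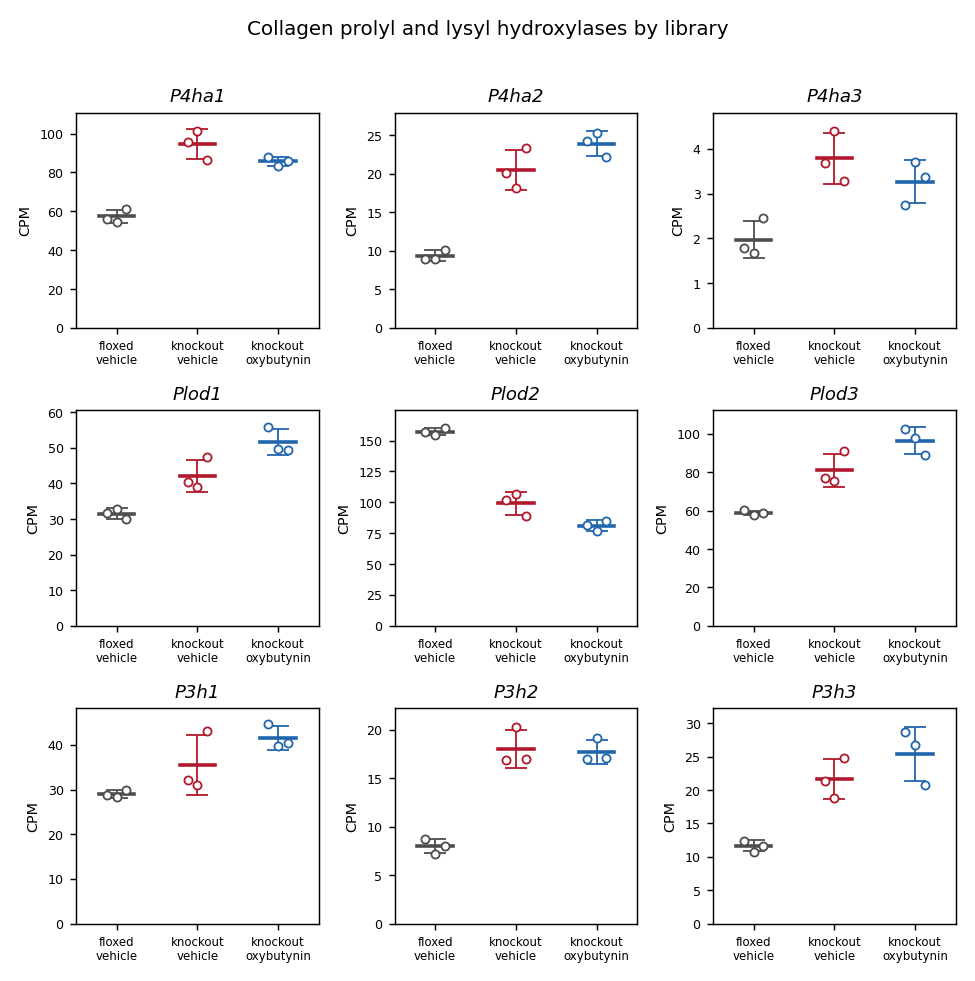
CPM per library (open circles), group mean (line) and SD (bars, n = 3) of the 9 collagen prolyl 4-, lysyl and prolyl 3-hydroxylases in the 3 groups, each axis starting at 0. The knockout libraries lie above all floxed libraries for 8 genes and below them for Plod2.

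Among 18 listed names of partners of these enzymes in collagen folding and cross-linking, an alias of a tested gene included, 16 were tested. With knockout 10 were higher and 1 lower, against 29.9% and 33.4% of all genes (median log2 fold change of the list 0.32). The lysyl oxidases Loxl2 (1.62 ± 0.13), Loxl4 (1.97 ± 0.17) and Loxl1 (1.28 ± 0.11), which oxidise lysines for cross-links, rose, and Mia3, a collagen export receptor, fell (-1.03 ± 0.09). After GC adjustment 9 partners were higher and 2 lower, against 29.9% and 28.9% of genes. All 4 of the named genes kept their direction (1.40, 1.55, 0.79 and -0.80). Of the 10 fibroblast markers, which include collagen genes, Col1a1 (1.36 ± 0.13), Col1a2 (0.82 ± 0.13) and Thy1 (1.95 ± 0.35) rose with knockout and Col3a1 fell (-0.18 ± 0.07), with the same directions called after GC adjustment. Pdgfra was not called (0.26 ± 0.21), and Lum, Tcf21, Dcn, Dpt and Pi16 were at 0 or under 1 CPM. The part of these markers in the collagen enzyme changes was not tested.

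TET enzymes oxidise 5-methylcytosine in DNA, the first step of its removal. All 3 fell. Tet1 (chr10:62804570-62908996) measured 16.9, 17.5 and 15.5 CPM in floxed, 7.87, 8.24 and 9.07 CPM in knockout vehicle and 5.63, 6.81 and 7.86 CPM in oxybutynin libraries. The 3 groups did not overlap, but knockout vehicle (lowest 7.87 CPM) and oxybutynin (highest 7.86 CPM) were almost level at their edges. That difference was not called (edgeR adjusted p = 0.158). The change with knockout was -0.98 ± 0.13 (edgeR adjusted p = 3.2e-06). Tet2 measured 50.0, 42.5 and 45.3 CPM in floxed, 25.9, 33.9 and 26.0 CPM in knockout vehicle and 23.9, 24.0 and 26.1 CPM in oxybutynin libraries, a change of -0.68 ± 0.11 (edgeR adjusted p = 3.9e-05). After GC adjustment neither Tet1 (-0.16) nor Tet2 (-0.04) was called.

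Tet3 measured 107, 105 and 105 CPM in floxed, 75.8, 75.3 and 65.3 CPM in knockout vehicle and 70.0, 86.0 and 73.5 CPM in oxybutynin libraries. It was the TET gene with the highest level per kilobase, 6.33 ± 0.081 CPM per kb (SD, n = 3) in floxed cells, and the one whose fall held: -0.55 ± 0.09 (edgeR adjusted p = 4.6e-05) as deposited and -0.53 ± 0.08 after adjustment. Of 12 listed DNA methylation partners, 0 were higher and 5 lower, among them Mbd4, Uhrf2, Dnmt1 and Dnmt3a (from -0.26 to -0.85), and 7 were lower after adjustment. Of all genes, 29.9% were higher and 33.4% lower, and 28.9% were lower after adjustment. Dnmt1, the maintenance methyltransferase, changed by -0.26 ± 0.09 as deposited and by -0.52 after adjustment.

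The 13 JmjC histone demethylases remove methyl groups from histone lysines. With knockout 3 rose (Kdm4a, Kdm4b and Kdm6b), 6 fell (Kdm2a, Kdm3a, Jmjd1c, Kdm4c, Kdm5a and Kdm7a) and 4 were not called (Kdm2b, Kdm3b, Kdm5b and Phf2). Jmjd1c (chr10:67096125-67256326), a relative of the H3K9 demethylases KDM3A and KDM3B, measured 490, 468 and 480 CPM in floxed, 98.6, 134 and 110 CPM in knockout vehicle and 95.8, 93.9 and 108 CPM in oxybutynin libraries. The highest knockout library was well under the lowest floxed one. This was the largest change of any member, -2.07 ± 0.10 (edgeR adjusted p = 3.4e-11), 4.20-fold lower, and it was -1.15 ± 0.07 after GC adjustment. Per kilobase, Jmjd1c led the demethylases in floxed cells (26.9 ± 0.60 CPM per kb) and stood at 6.40 ± 1.00 CPM per kb in knockout vehicle cells, where Kdm6b led (31.9 ± 5.20).

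Of the relatives of Jmjd1c, Kdm3b ranged from 150 to 158 CPM in floxed and 147 to 162 CPM in knockout vehicle libraries (0.00 ± 0.08, not called). Kdm3a, a hypoxia-induced H3K9 demethylase, ranged from 71.8 to 85.9 CPM and from 45.0 to 62.5 CPM in those groups, a change of -0.52 ± 0.11 that was -0.14 and not called in the GC-adjusted fit and -0.27 and called with scaling left as it was.

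Kdm5a (chr6:120364124-120444574), an H3K4 demethylase, measured 120, 117 and 127 CPM in floxed, 68.4, 74.8 and 64.2 CPM in knockout vehicle and 57.6, 52.4 and 55.4 CPM in oxybutynin libraries. The 3 groups did not overlap, and the change with knockout was -0.82 ± 0.08 (edgeR adjusted p = 1.6e-07), but it was 0.02 and not called after GC adjustment. Its paralogue Kdm5b was level in the counts as deposited (0.02 ± 0.08, not called) and was called higher after adjustment (0.41 ± 0.05). Kdm6b, an H3K27 demethylase, measured 164, 154 and 166 CPM in floxed, 222, 186 and 258 CPM in knockout vehicle and 285, 275 and 244 CPM in oxybutynin libraries. All 6 knockout libraries exceeded the floxed ones, and the change was 0.46 ± 0.10 (edgeR adjusted p = 0.00082); adjusted it was 0.06 and not called.

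Of the others, Kdm2a, an H3K36 demethylase, changed by -0.42 ± 0.09 and was lower in both adjusted fits (-0.15 with scaling recomputed). In the KDM4 group of H3K9 and H3K36 demethylases, Kdm4a (0.41 ± 0.09) was not called after GC adjustment (0.11), Kdm4b (0.71 ± 0.12) was (0.25, but 0.12 and not called with scaling left as it was), and Kdm4c (-0.54 ± 0.09) stood at 0.00. Kdm7a, an H3K9 and H3K27 demethylase, was lower as deposited (-0.58 ± 0.14) and higher after adjustment (0.52 ± 0.10), so its direction turned; at 39.6% it had the lowest GC content of the members. Phf2 was not called as deposited (0.16 ± 0.09) and was lower after adjustment (-0.26). Of the 30 genes listed under histone lysine methyltransferases, 5 were higher and 19 lower, against 29.9% and 33.4% of all genes. After adjustment 4 were higher and 21 lower, against 29.9% and 28.9% of genes. Ash1l (-1.58 ± 0.08), Setd2 (-1.66 ± 0.10), Kmt5b (-1.44 ± 0.09) and Kmt2e (-1.29 ± 0.10) had the lowest adjusted p-values.

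The other JmjC and protein hydroxylases were Kdm8, Jmjd6, Ogfod1, a ribosomal protein prolyl hydroxylase, and Asph, which hydroxylates epidermal growth factor-like domains. Asph had the lowest adjusted p of the 4 and measured 145, 139 and 136 CPM in floxed, 96.8, 112 and 85.7 CPM in knockout vehicle and 76.9, 76.4 and 78.8 CPM in oxybutynin libraries. The 3 groups did not overlap. The change with knockout was -0.52 ± 0.09 (edgeR adjusted p = 8.3e-05), but in the GC-adjusted fit Asph was called higher (0.19 ± 0.05), and with scaling left as it was it was not called (0.06). Ogfod1 ranged from 36.0 to 38.5 CPM in floxed and from 43.4 to 49.3 CPM in knockout vehicle libraries (0.32 ± 0.09, and 0.45 ± 0.07 after adjustment), and it was called in every refit. Kdm8 was lower by a narrow margin (-0.34 ± 0.14, edgeR adjusted p = 0.043): the call was lost without any 1 of 7 libraries (-0.26 to -0.37; those whose omission kept it were floxed library 3 and oxybutynin library 1), and the adjusted value was -0.70 ± 0.13. Jmjd6 was not called (0.05 ± 0.12) and was lower after adjustment (-0.23).

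ALKBH proteins and FTO remove alkyl groups from DNA and RNA. ALKBH8, which carries a methyltransferase that finishes the wobble uridine of some transfer RNAs, changed most. Alkbh8 (chr9:3335140-3391154) measured 51.7, 47.8 and 51.0 CPM in floxed, 17.3, 17.9 and 16.4 CPM in knockout vehicle and 13.9, 12.5 and 16.4 CPM in oxybutynin libraries. All 6 knockout libraries lay far below the lowest floxed one. The change was -1.55 ± 0.10 (edgeR adjusted p = 1.1e-09), 2.92-fold lower, and -0.53 ± 0.09 after GC adjustment, and it was called in every refit.

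FTO and ALKBH5 demethylate N6-methyladenosine (m6A) in RNA, and both genes rose. Fto measured 101, 96.0 and 98.8 CPM in floxed, 135, 116 and 142 CPM in knockout vehicle and 144, 135 and 129 CPM in oxybutynin libraries. No knockout library fell into the floxed range, and the change was 0.41 ± 0.08 (edgeR adjusted p = 0.00044), or 0.67 ± 0.09 after adjustment. Alkbh5 ranged from 155 to 165 CPM in floxed and from 194 to 208 CPM in knockout vehicle libraries (0.33 ± 0.07, and 0.23 ± 0.06 after adjustment), but it was not called with scaling left as it was. Of 18 listed names of m6A writers and readers 17 were tested, the other being an alias of a tested gene. Of the 17, 1 was higher and 13 lower, against 29.9% and 33.4% of all genes. After adjustment 4 were higher and 10 lower, against 29.9% and 28.9% of genes. The readers Ythdf3 (-1.62 ± 0.11) and Ythdc1 (-1.54 ± 0.13) and the writer-complex genes Rbm15 (-0.94 ± 0.09) and Zc3h13 (-0.97 ± 0.11) had the lowest adjusted p-values and were lower after adjustment too (-0.56, -0.17, -0.42 and -1.07).

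Alkbh2, a DNA repair demethylase, measured 2.61, 2.15 and 2.85 CPM in floxed, 5.17, 3.22 and 5.59 CPM in knockout vehicle and 7.47, 5.63 and 4.67 CPM in oxybutynin libraries. Its groups did not overlap between genotypes (0.88 ± 0.23, edgeR adjusted p = 0.003; 0.48 ± 0.19 after adjustment, and 0.35 and not called with scaling left as it was). This value is uncertain, because 29.5% of the exons of Alkbh2 overlap Usp30 on the other strand, which had 9541 counts against 921 for Alkbh2 over the 9 libraries, and no source used here says whether the counting used strand. Plod3 shares 11.7% of its exons with Znhit1 on the other strand, which had 2500 counts against 16524 for Plod3. Alkbh3 (0.33 ± 0.10) and Alkbh4 (0.49 ± 0.13) rose and were not called after adjustment (0.08 for each), and Alkbh3 was not called without floxed library 3 (0.28). Alkbh1 (-0.12 ± 0.10), Alkbh6 (0.25 ± 0.22) and Alkbh7 (0.06 ± 0.21) were not called. In the GC-adjusted fit Alkbh1 was called higher (0.19 ± 0.08), but with scaling left as it was it was not called (0.06).

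Phyh encodes phytanoyl-CoA 2-hydroxylase, the peroxisomal enzyme that starts the breakdown of branched phytanic acid. Phyh (chr2:4919019-4938730) measured 6.69, 8.24 and 8.49 CPM in floxed, 25.7, 27.7 and 24.5 CPM in knockout vehicle and 21.5, 24.0 and 23.5 CPM in oxybutynin libraries. The lowest knockout library had more than 2 times the highest floxed value. The rise was 1.73 ± 0.11 (edgeR adjusted p = 8.5e-10), 3.32-fold, and 2.00 ± 0.10 after GC adjustment, the largest rise of any member in these fits. D2hgdh measured 14.5, 15.4 and 13.4 CPM in floxed, 19.8, 20.1 and 20.9 CPM in knockout vehicle and 21.8, 22.6 and 23.8 CPM in oxybutynin libraries. The 3 groups did not overlap for D2hgdh, and the change with knockout was 0.49 ± 0.10 (edgeR adjusted p = 0.0003), which was 0.19 ± 0.09 and not called after adjustment.

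Of 27 listed genes that supply 2-oxoglutarate or remove the products of the reaction, 14 were higher and 5 lower with knockout. The shares of all genes were 29.9% and 33.4%. After GC adjustment 18 of the list were higher and 1 lower, against 29.9% and 28.9% of genes. The aminotransferases Got1 (1.45 ± 0.08), Gpt2 (1.11 ± 0.08) and Got2 (0.65 ± 0.08), which exchange 2-oxoglutarate with glutamate, rose and were higher after adjustment (1.18, 0.93 and 0.29). Got1 went from 52.6, 56.6 and 53.0 CPM in floxed to 136, 146 and 162 CPM in knockout vehicle libraries. Beyond the members, 18 of 23 other listed 2-oxoglutarate oxygenases were tested, and 4 were higher and 7 lower (2 and 4 after adjustment), against the same shares of all genes. The H3K27 demethylase gene Kdm6a (-1.24 ± 0.11), its Y-linked relative Uty (-1.27 ± 0.14), Kdm5d (-0.78 ± 0.09) and Rsbn1l (-1.13 ± 0.14) had the lowest adjusted p-values; Kdm6a (-0.48) and Rsbn1l (-0.50) were lower after adjustment and Uty and Kdm5d were not called.

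**Figure D5:**
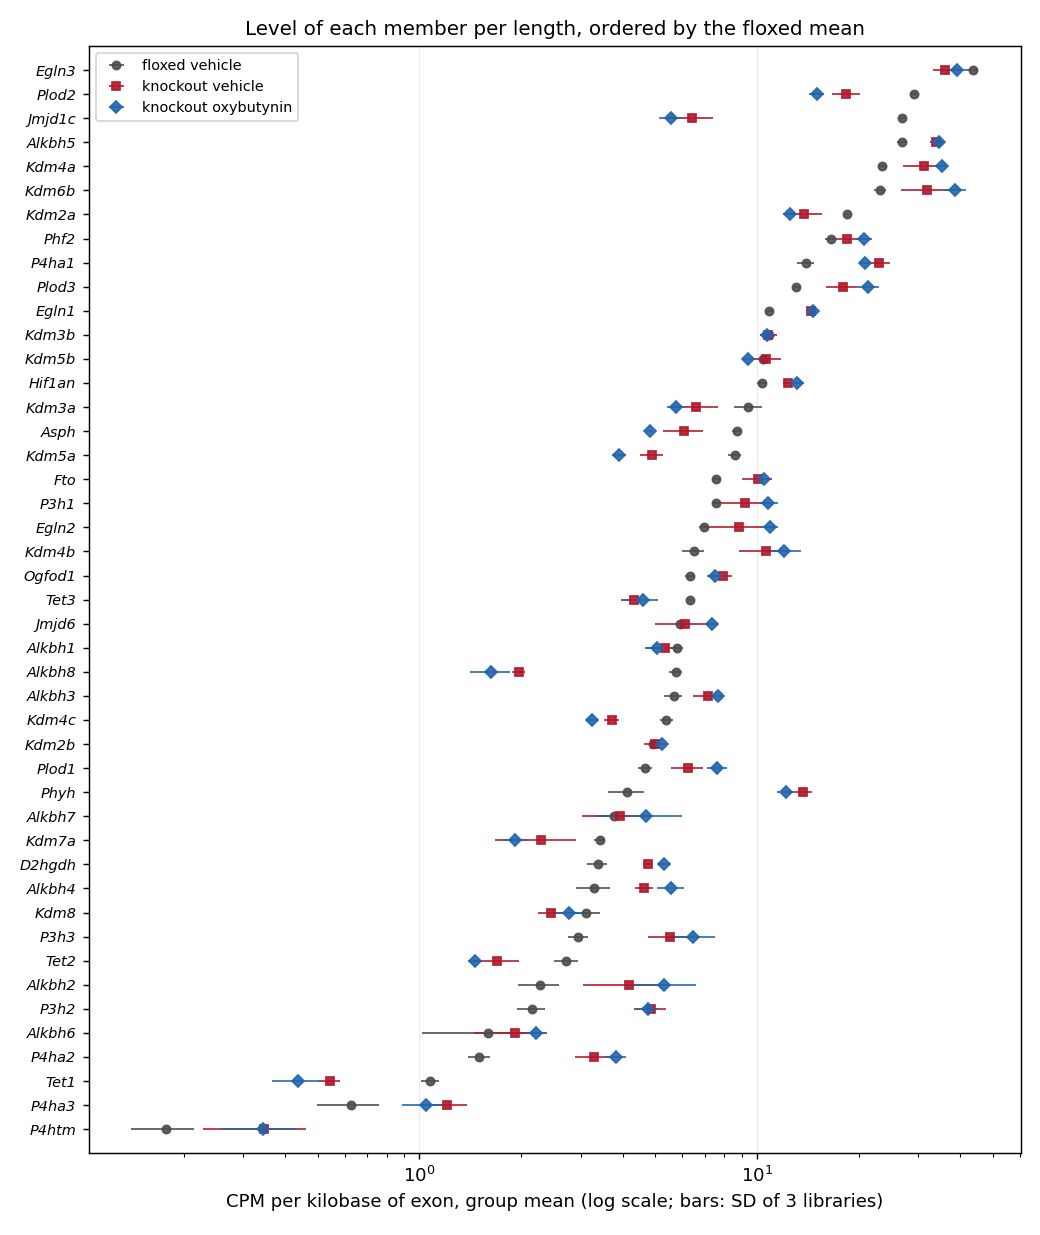
Level of each member in CPM per kilobase of exon (group mean on a log axis, bars are the SD of 3 libraries) in floxed vehicle, knockout vehicle and knockout oxybutynin cells, ordered by the floxed mean. Egln3 was highest and P4htm lowest in floxed cells, and Jmjd1c, Alkbh8 and Phyh show the widest gaps between genotypes.

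Levels per kilobase of annotated exon, which understate genes with many long alternative exons, placed Egln3 first in floxed cells (43.6 ± 1.62 CPM per kb, SD, n = 3), followed by Plod2 (29.2 ± 0.56), Jmjd1c (26.9 ± 0.60) and Alkbh5 (26.8 ± 0.89). The last 2 lay closer to each other than their SDs. P4htm was lowest (0.18 ± 0.037). In knockout vehicle cells Egln3 was again highest (36.1 ± 2.89) and Alkbh5 (33.8 ± 1.23) and Kdm6b (31.9 ± 5.20) came within an SD of their neighbours. Together the members took 0.32% of counts in each floxed library, 0.28% to 0.31% in knockout vehicle and 0.27% to 0.29% in oxybutynin libraries.

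No member passed the test with oxybutynin, from the HIF and collagen hydroxylases to the demethylases. Against knockout vehicle, edgeR called 0 of 45 members, against 0.0127% of all genes (2 genes, 0.00636% higher and 0.00636% lower), while 12 members and 4084 genes had an unadjusted p under 0.05. The member changes ran from -0.34 for Asph to 0.35 for Alkbh2, with SEs from 0.07 to 0.30, and 11 members did not overlap between the groups, against 22.1% of all genes. The lowest edgeR adjusted p-values were those of Kdm5a (-0.33 ± 0.08, adjusted p = 0.068), Asph (-0.34 ± 0.09, adjusted p = 0.072), Plod2 (-0.29 ± 0.08, adjusted p = 0.078) and Plod1 (0.29 ± 0.10, adjusted p = 0.099). DESeq2 called Kdm5a, Asph and Plod2 lower (3 members, with 7.21% of genes called, 960 lower and 173 higher), and limma-voom called 0. The same 3 were called by edgeR with no low-count filter, against 3.65% of genes, and Plod1 joined them at an adjusted p under 0.1, against 7.56% of genes.

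This count changed with the third knockout vehicle library left out. Over the tested genes (log2 CPM) that library correlated at 0.992 to 0.993 with the oxybutynin libraries. With knockout vehicle libraries 1 and 2 it correlated at 0.990 and 0.986. That library lay nearer the oxybutynin libraries than the other 2 knockout vehicle libraries did for Egln2 (29.4 CPM, against 25.9 and 19.1), Plod3 (90.9 CPM, against 77.1 and 75.2) and Kdm6b (258 CPM, against 222 and 186). Without it, 15 members were called, against 26.0% of all genes: 9 higher with oxybutynin, against 11.6% of genes, and 6 lower, against 14.4%. The 9 were Egln2, P4ha2, Plod1, Plod3, P3h1, Kdm4a, Kdm4b, Kdm6b and Phf2, from 0.25 for Phf2 to 0.45 for Egln2. The 6 were Plod2, Kdm2a, Kdm3a, Kdm5a, Kdm5b and Asph, from -0.23 for Kdm2a to -0.43 for Asph. Leaving out any other single library gave 0 called members, among them knockout vehicle library 2, which stood apart as given above.

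The changes with oxybutynin also went with base composition, with a Spearman's rho against GC content of 0.69 across 12976 protein-coding genes and 0.81 across the 45 members. After GC adjustment 0 members were called, against 0.0191% of genes higher and 0.0318% lower, and the values nearest a call above stood at -0.09 for Kdm5a, -0.12 for Asph and -0.10 for Plod2, while Plod1 stood at 0.24 ± 0.08. Of the members that rose with knockout in both adjusted fits, the oxybutynin values in the counts as deposited were -0.14 ± 0.08 for P4ha1, 0.22 ± 0.11 for P4ha2, -0.03 ± 0.11 for P3h2, 0.23 ± 0.13 for P3h3, -0.08 ± 0.09 for Ogfod1, 0.06 ± 0.08 for Fto and -0.17 ± 0.10 for Phyh. Of those that fell, they were 0.12 ± 0.08 for Egln3, 0.09 ± 0.09 for Tet3, -0.14 ± 0.09 for Kdm2a, -0.20 ± 0.10 for Jmjd1c, 0.18 ± 0.14 for Kdm8 and -0.27 ± 0.11 for Alkbh8. Missing the threshold does not show that the groups were alike.

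Knockout cells given oxybutynin were also set against floxed vehicle cells. This comparison shares its floxed libraries with the first and its oxybutynin libraries with the second, so it is no independent repeat. It called 37 members, against 71.9% of all genes, 25 higher (35.1% of genes) and 12 lower (36.9%), and 41 members did not overlap, against 78.9% of genes. The GC-adjusted fit called 18 higher, against 31.4% of genes, and 8 lower, against 30.2%; with scaling left as it was the split was 12 and 15, against 24.3% and 39.0%.

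Side by side, the change from floxed was 0.72 in vehicle and 0.58 in oxybutynin knockout cells for P4ha1, and 1.13 and 1.35 for P4ha2. The pairs were 1.18 and 1.15 for P3h2, 0.90 and 1.13 for P3h3, and 1.73 and 1.56 for Phyh. For the genes that fell they were -2.07 and -2.27 for Jmjd1c and -1.55 and -1.82 for Alkbh8. For Tet1 they were -0.98 and -1.30, and for Kdm5a -0.82 and -1.14. In the GC-adjusted fit the pairs were -1.15 and -1.11 for Jmjd1c and -0.53 and -0.57 for Alkbh8. Tet1 stood at -0.16 and -0.25 and Kdm5a at 0.02 and -0.08, with neither gene called. Adjusted pairs of the genes that rose were 0.95 and 0.94 for P4ha1 and 0.92 and 1.10 for P4ha2. They were 0.88 and 0.75 for P3h2, 0.42 and 0.44 for P3h3, and 2.00 and 1.92 for Phyh. Egln3, lower in vehicle cells (-0.27), was not called in oxybutynin cells (-0.15 ± 0.08, edgeR adjusted p = 0.11), and the test of the difference between those 2 groups is the one above (0.12 ± 0.08, edgeR adjusted p = 0.37). Alkbh2 reached 1.23 ± 0.23 in oxybutynin cells, with the same doubt about Usp30. Calls lost without 1 library here were those of P4htm (0.82 without floxed library 2 and 0.78 without oxybutynin library 2), Jmjd6 (0.30 to 0.32 without any 1 floxed library or oxybutynin library 1 or 2) and Ogfod1 (0.22 to 0.24 without floxed library 1 or 3 or oxybutynin library 2 or 3).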

How the data were processed

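Directional libraries were made from total RNA with a NEBNext kit, per the labels' protocols. The authors deposited whole-number counts per gene, not normalized. The submitters' processing notes name STAR 2.7.0e, Trim Galore 0.6.0, cutadapt, DESeq2 1.26.0 and FastQC, with GRCm38 and mm10. The sources used here give no counting step, strand setting or annotation. All 55536 gene IDs occur in GENCODE M21 (GRCm38), which gave coordinates, exon lengths and GC content of the longest transcript; promoters came from RefSeq (GRCm38.p6), for 37 of 45 members.

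The deposited counts were tested with edgeR 4.0.16 in R 4.3.3 by the quasi-likelihood test on all 9 libraries: filterByExpr on the 3 groups, TMM scaling, 1 mean per group, 6 residual degrees of freedom, no covariate, and Benjamini-Hochberg adjustment over 15720 genes, with calls at an adjusted p under 0.05. CPM values are per TMM-scaled library, and SEs come from the same fit. Totals of at least 19604971 counts leave members near 1 CPM with the fewest counts; 3 libraries a group set the error of each mean. The GC and length trend was removed per library by natural splines (5 degrees of freedom each) used as offsets, with TMM recomputed; that recomputation was chosen after both member counts were seen, and both are printed. Scripts were tested on simulated data.

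Named with full values are members called with a log2 change of at least 1 in size in any comparison, the member with the lowest adjusted p of each role group, and Egln1, Egln2, Egln3, Kdm6b, Tet1, Tet2, Tet3, Fto and D2hgdh; of each context list, up to 4 called genes with the lowest adjusted p, except that some listed genes are not reported here by name. The lists were 2-oxoglutarate supply and product removal, other 2-oxoglutarate oxygenases, HIF axis, collagen partners, DNA methylation partners, histone lysine methyltransferases, m6A writers and readers, and cell type markers. Members, lists and tests were chosen with earlier results of these data known. Alternatives were DESeq2 1.42.0, limma-voom (limma 3.58.1), RLE or library-total scaling, other filters, only the groups compared, each library left out, other thresholds, and the GC trend removed.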

Additional observations from a re-analysis of the deposited data

How the results depend on the processing

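Of the 37 members called in knockout vehicle against floxed vehicle, 31 kept their call and direction whichever library was left out, and 12 did so in every refit that was run (Egln3, P4ha1, P4ha2, P3h2, P3h3, Tet3, Kdm2a, Jmjd1c, Ogfod1, Alkbh8, Fto and Phyh). The matching shares of all genes were not computed, so these counts have no baseline. The count of members called was 24 with the GC and length trend removed (8 lower), 22 with scaling not recomputed (9 higher) and 22 when knockout vehicle library 2 was also left out (15 higher, 7 lower), against 58.8%, 60.8% and 58.1% of all genes. In the last of these fits 4849 genes were higher and 4503 lower. Requiring a 1.5-fold change left 15 (9 higher, 6 lower), against 41.1% of all genes (2604 genes higher, 3859 lower). For oxybutynin against knockout vehicle the count of 0 became 3 with DESeq2, all lower, against 7.21% of all genes (173 genes higher, 960 lower). With no low-count filter it was 3, all lower, against 3.65% (277 genes higher, 822 lower). At an adjusted p under 0.1 it was 4 (1 higher, 3 lower), against 7.56% (279 genes higher, 910 lower). Leaving out 1 library at a time gave 0 to 15 called, 0 to 9 higher and 0 to 6 lower, against 0% to 26.0% of all genes. For oxybutynin against floxed vehicle, a 1.5-fold change left 24 (14 higher), against 51.2% of all genes (3449 genes higher, 4602 lower). With the GC trend removed and scaling not recomputed 12 were higher, against 24.3% of genes. The cause of these shifts was not tested.

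Directions that turned, in knockout vehicle against floxed vehicle, were those of Kdm7a (0.52) and Asph (0.19) with the GC trend removed and of Egln2 (-0.26), P3h1 (-0.29) and Kdm7a (0.39) with scaling not recomputed. Without knockout vehicle library 2 as well, the GC-adjusted values were 0.47 for Kdm7a and 0.17 for Asph. In oxybutynin against floxed vehicle they were Kdm7a (0.51) and Phf2 (-0.23) with the trend removed, Egln1 (-0.31), Egln2 (-0.19), P3h1 (-0.23), Kdm7a (0.37) and Phf2 (-0.37) with scaling not recomputed, and Egln1 (-0.17), Kdm7a (0.51) and Phf2 (-0.23) with the trend removed and knockout vehicle library 2 left out. The added alternatives (adjusted p under 0.1, scaling not recomputed, and the GC trend removed without knockout vehicle library 2) were chosen after seeing the data. No paired analysis was possible because the library names give the groups no shared replicate numbers. Depth limits P4htm, at about 1 CPM.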
